A study of Mus musculus with 16 samples.

Results

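The genes described here are 10 mouse genes for subunits and motor proteins of ATP-dependent chromatin remodelling complexes: Smarca4, Smarca2, Smarcb1, Smarcc1, Smarcd1, Arid1a, Arid1b, Smarca5, Chd1 and Ino80. They were chosen by name, and all 10 were found among the 21887 protein-coding genes of the RefSeq table (GRCm38.p6) on chromosomes 1 to 19, X and Y. For each gene, the peaks of 4 deposited lists were measured at both gene ends (a window of 2 kb to each side of the end), over the gene body, and over the gene with 2 kb of flank on each side, called the gene region below. The lists hold the peaks of H3K27ac, a histone acetylation of active promoters and enhancers, and of H3K4me3, a histone methylation found mainly at promoters.

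Embryos were taken at the late 2-cell stage, 36 h after fertilization. Control embryos had been injected with water at the zygote stage, and the others with mRNA of an Hdac1 mutant at the same stage. The control injection thus held no mRNA. Hdac1 is a histone deacetylase, and the labels do not say which mutation the mRNA carried. The strain, the number of embryos and the dose are not given in the sources used here. Chromatin was digested with micrococcal nuclease and precipitated without crosslinking (ULI-NChIP-seq, a native method for small cell numbers). Each of the 4 lists stands for 2 immunoprecipitation libraries of 1 mark and 1 injection, and the labels do not say whether these came from separate embryo collections. The values therefore carry no error between replicates, no test of the conditions was possible, and every difference is one between deposited lists. A peak has a position only, with no height, so its width is the one measure of its size, and the depth of the libraries is unknown.

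Remodellers use ATP to slide, evict or exchange nucleosomes. In the canonical BAF complexes (a form of mammalian SWI/SNF) the motor is either Smarca4 (BRG1) or Smarca2 (BRM). Their core includes Smarcb1, Smarcc1 and Smarcd1, and Arid1a and Arid1b are alternative large subunits that bind DNA. Smarca5 (SNF2H) is the motor of ISWI complexes, which space nucleosomes, Chd1 is a motor whose chromodomains bind methylated H3K4, and Ino80 is the motor of a complex that slides nucleosomes and acts on the histone variant H2A.Z. Maternal BRG1 is known to be required for activation of the embryonic genome in the mouse.

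The 250 bases before the annotated start site are printed for 3 genes at which marking of the promoter differed between the lists and for Arid1a, at which it did not. The promoter of Arid1b differed in the other direction, with H3K27ac over 0 bases in water and 250 in the mutant list, and is not printed because its start site lies inside the annotated gene. Smarcd1 had both marks over these bases in water and neither in the mutant list. Smarcb1 and Smarca5 had both marks in water and only H3K4me3 in the mutant list. Arid1a had both marks in both conditions. The sequences are from the RefSeq promoter table, GRCm38.p6, written 5′ to 3′ on the strand of the gene, with matches to the motifs described below in capitals.
Smarcd1 (chr15:99702037-99702286, plus strand): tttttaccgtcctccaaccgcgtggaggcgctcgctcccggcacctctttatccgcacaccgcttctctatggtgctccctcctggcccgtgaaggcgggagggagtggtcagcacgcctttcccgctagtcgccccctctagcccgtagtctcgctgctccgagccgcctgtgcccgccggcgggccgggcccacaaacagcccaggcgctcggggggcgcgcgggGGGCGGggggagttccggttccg
Smarcb1 (chr10:75921615-75921864, minus strand): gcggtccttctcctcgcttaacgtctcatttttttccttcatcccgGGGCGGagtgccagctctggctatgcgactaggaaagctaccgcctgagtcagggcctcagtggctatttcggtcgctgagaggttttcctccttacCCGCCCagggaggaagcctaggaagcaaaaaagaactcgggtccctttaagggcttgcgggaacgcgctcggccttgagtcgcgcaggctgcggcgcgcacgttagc
Smarca5 (chr8:80739460-80739709, minus strand): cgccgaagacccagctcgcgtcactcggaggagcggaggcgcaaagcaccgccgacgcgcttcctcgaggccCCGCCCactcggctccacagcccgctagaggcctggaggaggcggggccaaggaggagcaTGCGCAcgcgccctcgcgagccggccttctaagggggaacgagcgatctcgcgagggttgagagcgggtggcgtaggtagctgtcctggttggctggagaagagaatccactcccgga
Arid1a (chr4:133756770-133757019, minus strand): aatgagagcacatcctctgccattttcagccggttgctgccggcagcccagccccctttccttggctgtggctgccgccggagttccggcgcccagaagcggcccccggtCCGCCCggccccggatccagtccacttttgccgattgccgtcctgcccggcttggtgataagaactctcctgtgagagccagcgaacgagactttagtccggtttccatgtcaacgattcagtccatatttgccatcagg

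The promoter table held 10 start sites for 9 of the 10 genes, with 2 for Arid1a, and the other member, Chd1, was not matched. All 10 windows were rich in CpG, with 18 to 37 CpG in 250 bases against a median of 6 over the 32851 promoters of the table. The observed-to-expected CpG ratio ranged from 0.784 at the outer Arid1a start to 1.03 at Arid1b, against a median of 0.374. A GC box (GGGCGG, either strand) was present in 10 of 10 windows and in 32.7% of all promoters. The core of the NRF1 motif (TGCGCA, a palindrome) was found in 3 windows, at Smarca4, Smarcc1 and Smarca5, and in 6.43% of all promoters. An ETS motif (CCGGAAG, either strand) lay in 2 windows, at Smarca2 and Smarcc1 (6.91% of all promoters). A CCAAT box (CCAAT, either strand) lay in 1, at Ino80 (33.8%). The YY1 letters ATGGCGG were in no window, against 2.21% of all promoters. The same held for the CRE core TGACGT, present in 6.47% of all promoters. No window held the TATA box letters TATAAA either (12.4%). No 2 matches overlap in the sequences shown, and a match describes letters only. GC boxes were present both where H3K27ac was absent in the mutant list, as at Smarca5, and where it was kept, as at Arid1a.

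In water-injected embryos, H3K4me3 marked a gene end of 10 of 10 members, against 74.7% of all protein-coding genes. H3K27ac marked 9 of 10, the exception being Smarca2, against 54.8% of all genes. In mutant embryos H3K4me3 marked 9 of 10 (72.9% of all genes), and H3K27ac likewise 9 of 10 (58.0%). A gene-end peak present in water and missing from the mutant list was found at 1 of 9 members for H3K27ac, Smarca5 (22.7% of all genes marked in water), and at 1 of 10 for H3K4me3, Smarcd1 (8.94%). The reverse was found for H3K27ac at 1 of 1, Smarca2 (34.6% of genes unmarked in water), and for H3K4me3 at 0 of 0 (19.2%). The number of members marked at either end thus hardly differed between the conditions. Differences lay in which end was marked, in how much of each gene the peaks covered and in how the peaks were divided. Over the gene bodies all 10 members had a peak in each of the 4 lists. Of all genes, 65.4% had one for H3K27ac in water and 67.5% in the mutant list, and 77.5% and 75.9% for H3K4me3. The members are long genes, with a median length of 82944 bp against 17169 bp for all protein-coding genes, and a longer gene has more room for a peak.

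**Figure D1:**
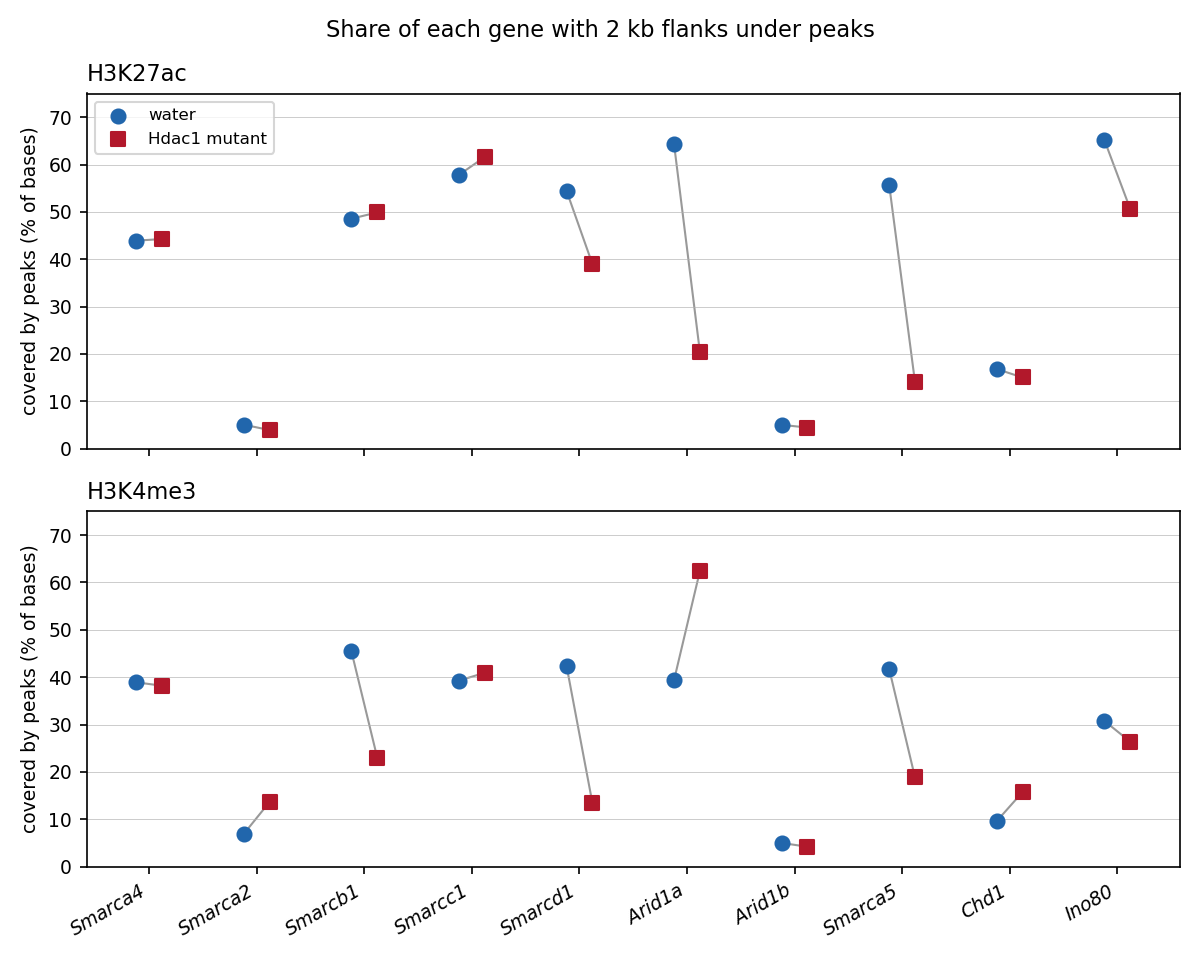
Share of each gene region (gene with 2 kb flanks) under peaks, in percent of its bases, for H3K27ac (top) and H3K4me3 (bottom). Circles are the water list and squares the Hdac1 mutant list, 1 value per list and no error. H3K27ac at Arid1a goes from 64.3% to 20.4% and at Smarca5 from 55.7% to 14.1%, whereas H3K4me3 at Arid1a goes from 39.4% to 62.4%.

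Among the motors of BAF, Smarca4 was widely covered by both marks and Smarca2 sparsely. H3K27ac covered 43.9% of the Smarca4 region (gene at chr9:21616106-21704230) in water and 44.3% in the mutant list, and H3K4me3 covered 38.9% and 38.2%. The covered share was thus almost equal in both conditions. Of the water H3K27ac bases, 73.4% were also covered in the mutant list. The median of this share was 42.9% over the members and 36.9% over all genes with enough cover. The H3K27ac shares of the genes below are to be read against the same medians. What differed was the division into peaks. In water a single H3K27ac peak of 43084 bp reached from -24.9 to 18.2 kb relative to the 5′ end, and also overlapped the neighbours Yipf2 and Timm29. In the mutant list 5 peaks lay within the same stretch, and the widest over the gene region measured 11798 bp. These peaks covered 86.0% of the stretch, against a median of 60.4% over all water H3K27ac peaks wider than 20 kb. The same median applies to the wide peaks of Smarcc1 and Arid1a below. The H3K4me3 peak over the Smarca4 start was nearly identical in both lists, with 32249 and 31848 bp. Smarca2 (chr19:26605073-26778321) had H3K27ac over 5.07% of its region in water and 3.93% in the mutant list. No H3K27ac peak lay at either end of Smarca2 in water, and the mutant list had 1 narrow peak of 849 bp at the 5′ end. H3K4me3 at Smarca2 went the other way, from 12321 to 24273 covered bases, a ratio of 1.97 that just misses a limit of 2-fold. The widest H3K4me3 peak there measured 4863 bp in water and lay inside the gene, whereas in the mutant list it measured 13581 bp and lay over the start, where the water peak measured 4357 bp.

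The core subunits differed from one another. Smarcc1 (chr9:110132024-110240178), which encodes the scaffold BAF155, had H3K27ac over 57.8% of its region in water and 61.6% in the mutant list. As at Smarca4, the cover was kept while the peaks were divided: the water list held 6 peaks, the widest of 72556 bp, and the mutant list 13 peaks, the widest of 10010 bp. The 72556 bp peak (chr9:110090460-110163015), which also covers part of the neighbouring gene Dhx30, was the 13th widest of the 77349 H3K27ac peaks in water. Mutant peaks covered 90.8% of it, the widest of them, outside the Smarcc1 region, measuring 24150 bp. H3K4me3 covered 39.3% and 40.9% of the Smarcc1 region, and its peak over the start was wider in the mutant list as deposited, 34403 bp against 23195 bp. This order reversed, 35890 against 43163 bp, once neighbours closer than 1 kb were joined.

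Smarcb1 (chr10:75896769-75921614), the gene of the core subunit BAF47, kept its H3K27ac cover, with 14010 bases in water and 14391 in the mutant list, and 76.0% of the water bases were covered in both. The edge at the start differed. The water peak of 11869 bp ran across the 5′ end, and the mutant peak of 14391 bp began 1.71 kb inside the gene. The window at the 5′ end was covered by 2378 bases in water and 289 in the mutant list. For H3K4me3 the 5′ window was covered by 2825 bases in water and 3900 in the mutant list, while the cover of the whole region went from 13111 to 6640 bases, a ratio of 0.506. Over the alternative settings the log2 ratio of this cover ranged from -1.58 to 0.55, against -0.98 as deposited. The widest H3K4me3 peak touching the Smarcb1 region, about 16.2 kb in both lists, lies over the neighbour Derl3, and Mmp11 lies within 2 kb of the 5′ end of Smarcb1, so that marks at both ends cannot be assigned to Smarcb1 alone.

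Smarcd1 (chr15:99702287-99713995), which encodes BAF60A, had the lowest mutant-to-water ratio of H3K4me3 cover among the members, and the difference lay at its ends. Its region held 6663 H3K4me3 bases in water, with a peak of 4241 bp at the 5′ end and a peak of 5639 bp at the 3′ end. The mutant list had neither, and held 1 peak of 2124 bp inside the gene, so that no base was shared between the conditions. H3K27ac at the 5′ end of Smarcd1 was likewise present only in the water list, as a peak of 2268 bp. At the 3′ end the H3K27ac cover was complete in both lists, under peaks of 24592 bp in water and 12857 bp in the mutant list that run on into the neighbour Gpd1. Asic1 lies within 2 kb of the 5′ end of Smarcd1. Over the gene body alone the H3K4me3 log2 ratio was -0.33, against -1.65 with the flanks, and no longer past 2-fold.

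Of the large DNA-binding subunits, Arid1a had the widest H3K27ac peak of all members and Arid1b was sparsely marked. In water, 10 H3K27ac peaks covered 52535 bases of the Arid1a region (gene at chr4:133679008-133756769, minus strand). In the mutant list 4 peaks covered 16715 bases, 3.14-fold fewer. The difference lay inside the gene and at its 3′ end, where the window was fully covered in water and held no peak in the mutant list. At the 5′ end the window was fully covered in both. The widest water peak (chr4:133750994-133844588) measured 93595 bp, the 2nd widest of its list, and lay mostly upstream of the gene, from -87.8 to 5.78 kb relative to the 5′ end. It also overlapped the gene Gm34296. Mutant peaks covered 71.3% of it, in 13 pieces of at most 11937 bp. H3K4me3 at Arid1a was higher in the mutant list, with 51024 bases against 32221 in water (log2 ratio 0.66). Of these water bases, 91.5% were also covered in the mutant list, against a median of 45.7% over the members and 72.2% over all genes. The H3K4me3 peak over the start measured 35403 bp in water and 44035 bp in the mutant list, the 23rd widest of that list. The marks thus went in opposite directions within one gene. Of all genes with enough cover for both marks, 11.0% had H3K27ac lower by 2-fold or more together with a higher H3K4me3 cover.

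Arid1b (chr17:4994297-5347656) is the longest member, with 353360 bp. H3K27ac covered 5.04% of its region in water and 4.46% in the mutant list, and H3K4me3 5.01% and 4.20%. Between 10 and 14 peaks lay over the region in each list, none wider than 6067 bp. At the 5′ end H3K27ac was wider in the mutant list, covering 3438 bases of the window against 341 in water, the one member with H3K27ac at the 5′ end in both lists and over 2-fold more cover there in the mutant list. An H3K27ac peak in the middle of the gene, about 190 kb from the start, was nearly identical in both lists, with 4008 and 3882 bp.

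**Figure D2:**
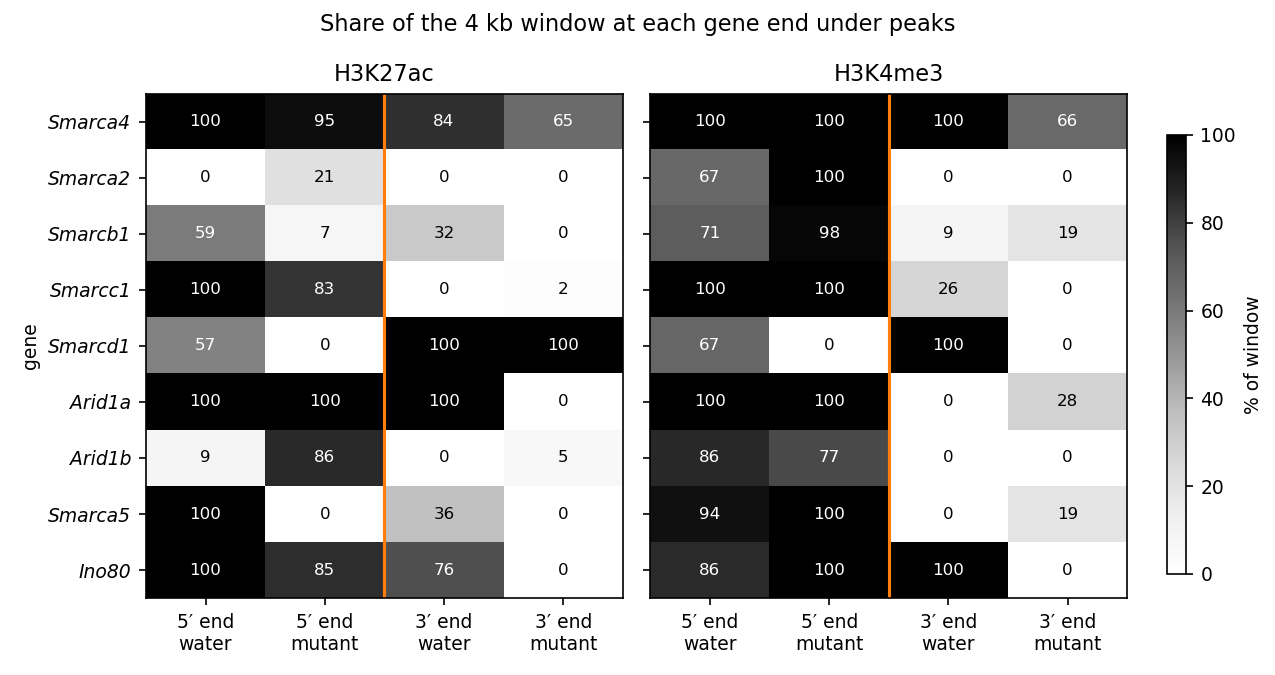
Share of the 4 kb window at the 5′ end and at the 3′ end under peaks, in percent, for the 9 members with a strand in the promoter table and each list. Darker squares mean more cover. For H3K27ac, Smarcd1 and Smarca5 have 0 at the 5′ end in the mutant list, and for H3K4me3 only Smarcd1 has.

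Outside BAF, Smarca5 (chr8:80699943-80739459, minus strand) had the lowest mutant-to-water ratio of H3K27ac cover among the members. Its region held 24257 H3K27ac bases in water and 6136 in the mutant list, 3.95-fold fewer. In water a peak of 28811 bp (chr8:80721266-80750076) ran across the start. In the mutant list 13.7% of it was covered, against a median of 60.4% over all water H3K27ac peaks wider than 20 kb. The 5 mutant peaks inside the gene were narrow, the widest measuring 1748 bp, and neither gene end held one. H3K4me3 cover was also lower, 8212 bases against 18168 in water, 2.21-fold fewer, but not at the start. There the window was covered by 3768 bases in water and 4000, the whole window, in the mutant list, whose peak of 15547 bp reached from -13.2 to 2.34 kb, against -1.77 to 11.5 kb for the water peak. Both marks were lower by 2-fold or more at Smarca5 alone among the members, and at 3.42% of all genes. With flanks of 5 kb the H3K4me3 log2 ratio of Smarca5 was -0.70, short of 2-fold, so that this call was lost. In the mutant list no base of the Smarca5 region was under both marks, against 17770 bases in water.

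Ino80 (chr2:119373042-119478685, minus strand) had the highest H3K27ac share of the members in water, with 65.3% of the region covered, and 50.7% in the mutant list. The peak over its start measured 38285 bp in water, and the widest mutant peak touching the region, just upstream of the start, measured 7476 bp. H3K4me3 differed in the other direction at the start, with a peak of 12096 bp in water and of 36799 bp in the mutant list, the 64th widest of that list. Merging peaks less than 1 kb apart brought these widths to 34612 and 36799 bp, a difference of less than 2-fold. The 3′ end had peaks of both marks in water and of neither in the mutant list: H3K27ac covered 3023 bases of that window and H3K4me3 4000 in water, and both 0 in the mutant list.

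Chd1 (chr17:15704967-15772612) is on a strand that the table does not give here, so its ends are named by coordinate. At the lower-coordinate end an H3K27ac peak of 12147 bp covered 3983 bases of the window in water, and the mutant list had no peak there. At the higher-coordinate end it was the reverse, with 0 bases in water and 2172 in the mutant list. The body was covered by 10057 bases in water and 10005 in the mutant list, and the whole region by 12057 and 10774, while only 11.6% of the water bases were covered in both. H3K4me3 was present at the lower-coordinate end in both lists, with 3923 bases of the window in water and 3163 in the mutant list, under peaks of 8044 and 3163 bp, and absent from the other end in both. Over the whole region it covered 6884 bases in water and 11283 in the mutant list, a ratio of 1.64. Over the body alone it covered 4884 and 9970 bases, past 2-fold (log2 ratio 1.03). The widest mutant H3K4me3 peak, of 4910 bp, lay inside the gene.

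**Figure D3:**
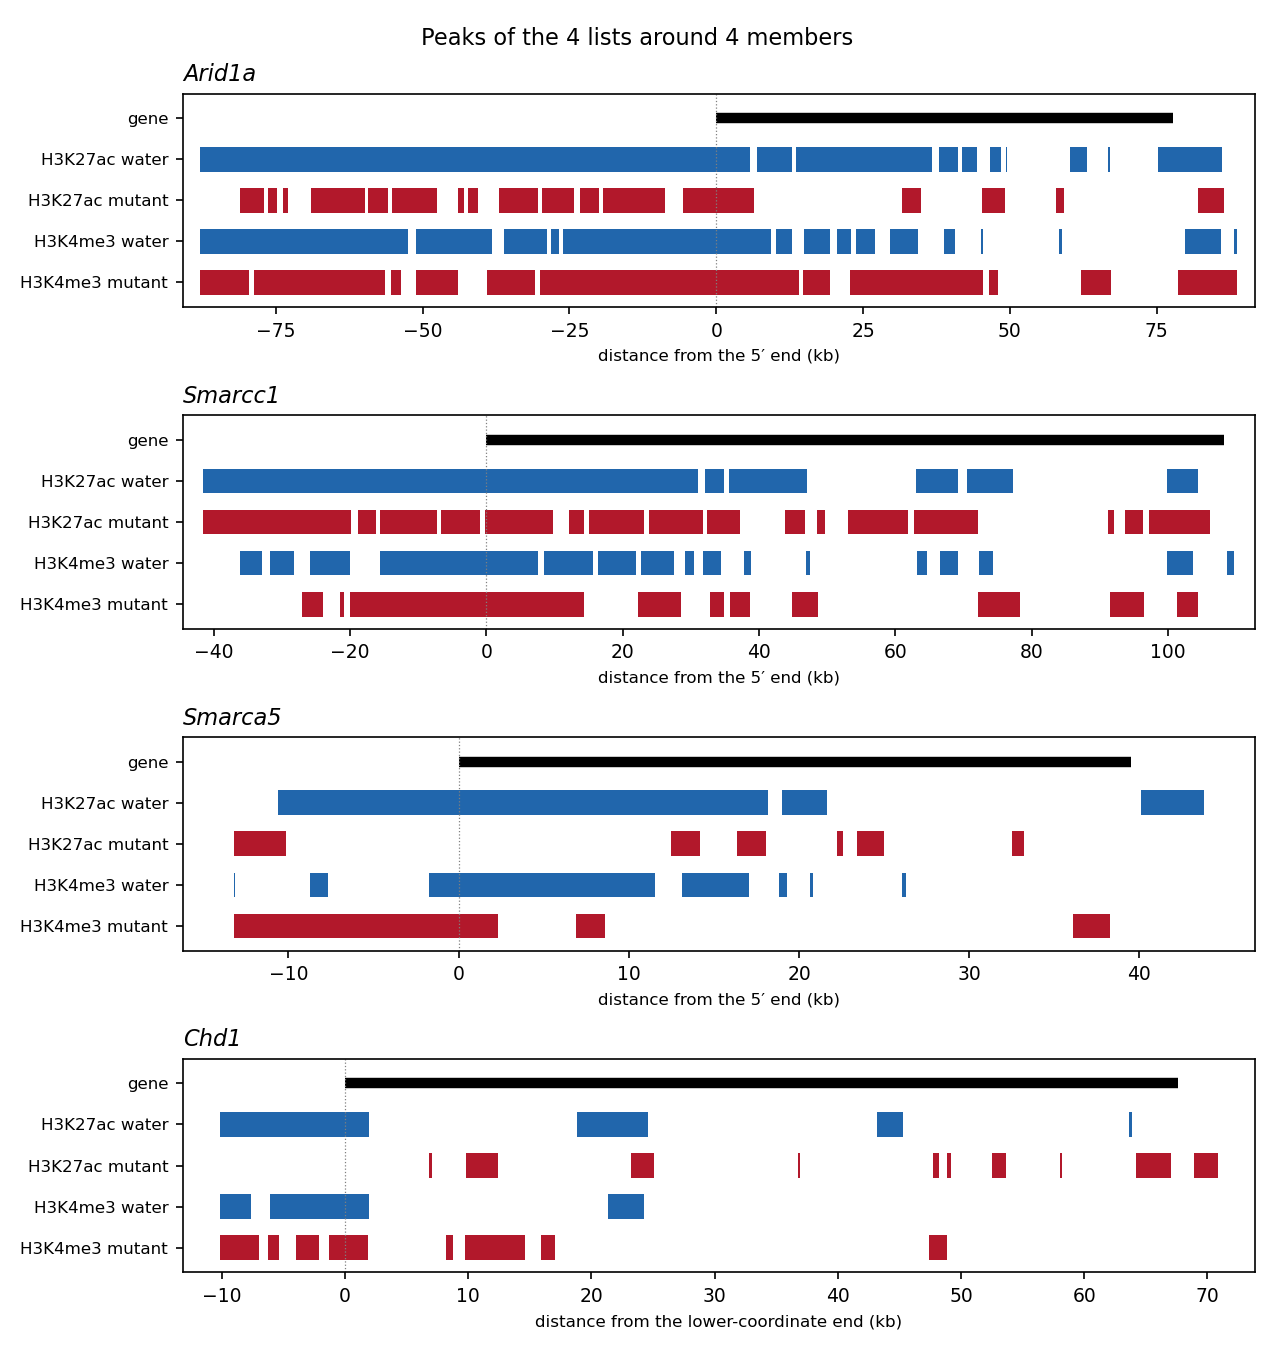
Peaks of the 4 lists around Arid1a, Smarcc1, Smarca5 and Chd1, drawn to scale by distance in kb from the 5′ end of the gene (for Chd1 from the lower-coordinate end). Blue bars are water peaks, red bars mutant peaks and the black bar the gene, and peaks are clipped at the edge of the drawn stretch. The 93595 bp H3K27ac peak at Arid1a and the 72556 bp peak at Smarcc1 are divided into many mutant peaks, while the mutant list has no H3K27ac peak over the start of Smarca5.

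Counted over all members, the cover by H3K27ac was 2-fold or more lower in the mutant list at 2 of 10, Arid1a and Smarca5, and higher at 0. Among the 13975 protein-coding genes with at least 2 kb covered in either list, 24.0% were lower and 24.6% higher by that limit. The share of members called lower is thus near that of all genes. By any amount, 7 members were lower and 3 higher, against 54.4% and 45.1% of all genes, and the median ratio of the members was 0.83, against 0.923 for all genes. For H3K4me3, 2 of 10 members, Smarcd1 and Smarca5, were lower by 2-fold or more and 0 higher, against 10.8% and 14.5% of 16506 genes. The median H3K4me3 ratio was 0.917 for the members and 1.08 for all genes. In the wider 50% of each list the members' median log2 ratio turned from -0.13 to 0.08. When only the gene ends were measured, 4 of the 9 members with enough cover were 2-fold or more lower for H3K27ac. In that setting 1 member, Arid1b, was 2-fold or more higher, against 30.6% lower and 21.2% higher among all genes. There the H3K4me3 log2 ratio of Smarca5 turned from -1.15 to 0.33.

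The width of the widest peak separated the marks. The widest H3K27ac peak over the gene region was narrower in the mutant list at 9 of 10 members, against 64.0% of genes with a peak in both lists, Smarcb1 being the exception. It was 2-fold or more narrower at 6 members (Smarca4, Smarcc1, Arid1a, Smarca5, Chd1 and Ino80), against 36.1% of all genes, and 2-fold or more wider at 0, against 17.2%. These widths count the bases of a peak beyond the region, but only peaks that touch it. Anywhere under the widest water peak of each gene, the widest mutant peak measured 24150 bp at Smarcc1, 11937 bp at Arid1a, 11798 bp at Smarca4, 7476 bp at Ino80 and 4656 bp at Smarca5, and Chd1 had none. The median ratio of widths was 0.252 for the members and 0.691 for all genes. In water 6 members had an H3K27ac peak wider than 20 kb, against 10.1% of all genes, and in the mutant list 0 had, against 1.33%. With peaks less than 1 kb apart merged, these counts were 6 and 2, against 15.9% and 6.78%. Among genes of 10 kb or longer, a limit chosen after the values were seen and met by all members, the shares of genes with such a peak as deposited were 11.5% and 1.52%. In the same genes 34.9% had an H3K27ac peak 2-fold or more narrower, and 21.8% had H3K27ac cover lower by 2-fold or more. The median length of the members is 82944 bp, so the 10 kb limit does not match them in length, nor in peak width in water.

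For H3K4me3 the widest peak was wider in the mutant list at 6 of 10 members, against 62.0% of all genes. It was 2-fold or more wider at Smarca2 and Ino80 (22.3% of all genes) and 2-fold or more narrower at Smarcd1 (10.5%). Peaks wider than 20 kb were present at 3 members in water and at 4 in the mutant list, against 5.56% and 6.36% of all genes and 6.07% and 6.70% of those of 10 kb or longer. After merging, the order of these counts turned, with 5 members in water and 4 in the mutant list, against 10.6% and 12.3% of all genes. The members thus lie near all genes in the share that widened. The number of H3K27ac peaks summed over the 10 regions was 69 in water and 77 in the mutant list, against 49360 and 70555 over all genes, and that of H3K4me3 peaks 66 and 54, against 55300 and 53083. More H3K27ac peaks in the mutant list were found at 6 of 10 members, against 54.0% of all genes, and fewer at 4, against 27.1%. For H3K4me3 more peaks were found at 3 members and fewer at 6, against 30.2% and 37.9%.

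**Figure D4:**
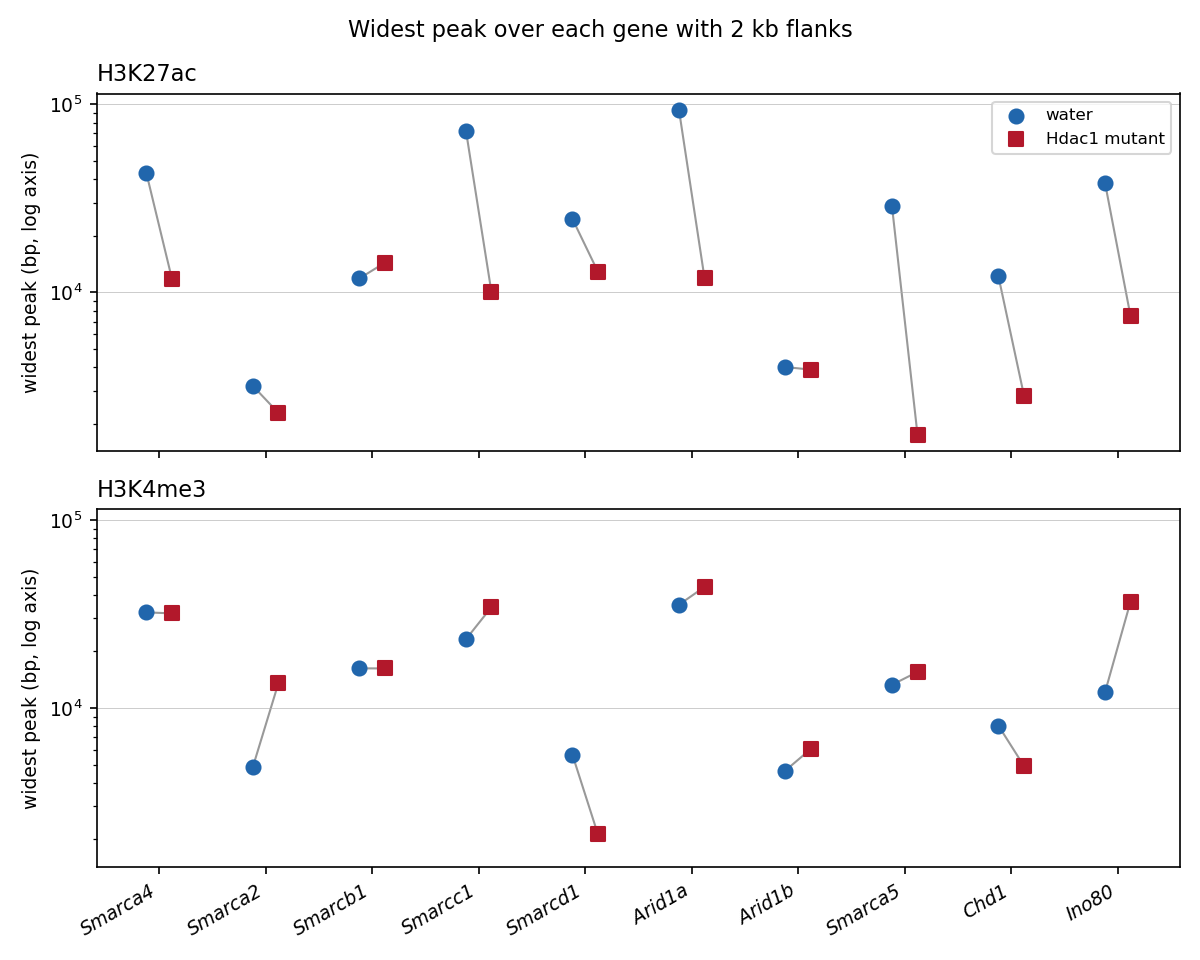
Width of the widest peak over each gene region, in bp on a log axis, for H3K27ac (top) and H3K4me3 (bottom). Circles are the water list and squares the Hdac1 mutant list. For H3K27ac 9 of 10 squares lie below their circles, and for H3K4me3 6 of 10 lie above.

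The smallest gap between neighbouring peaks was 681 bp in the water and 602 bp in the mutant H3K27ac list, so a wide peak in one list can appear as several in the other. With peaks less than 1 kb apart merged in every list, the mutant H3K27ac width was 28647 bp at Smarcc1 and 24974 bp at Ino80, against 72556 and 44358 bp in water. At Ino80 the difference was then less than 2-fold. At Smarca4 the widths became 43084 and 19067 bp. At Smarcd1, less than 2-fold apart as deposited, they became 86187 and 17176 bp. The count of 6 members narrower by 2-fold or more thus stayed, against 32.4% of all genes after merging, while Smarcd1 took the place of Ino80. At Arid1a merging left the widths at 93595 and 11937 bp, at Smarca5 it gave 32233 and 2782 bp, and at Chd1 it left 12147 and 2821 bp. At Arid1b the order of the H3K27ac widths reversed, with 6311 bp in water and 11508 bp in the mutant list.

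The bases under both marks made up a smaller share of the H3K4me3 cover in the mutant list at all 10 members. The same held for 54.2% of all genes with H3K4me3 in both lists, and for 73.9% of those with any such bases in water. In water, the share of H3K4me3 bases also under H3K27ac was above 80% at 8 of 10 members, against 29.1% of all genes, with 100% at Chd1, 97.8% at Smarca5 and 96.0% at Smarcc1. The low members were Arid1b with 24.4% and Smarca2 with 9.47%. In the mutant list it was above 80% at 1 member, against 12.4% of all genes. The share was then 81.0% at Smarca4, 67.7% at Smarcc1 and 67.0% at Ino80, and 0 at Smarcd1 and Smarca5. At Arid1a it went from 93.0% to 26.0%, at Smarcb1 from 93.1% to 16.8%, and at Chd1 from 100% to 28.5%. The median over members was 93.5% in water and 23.9% in the mutant list. Over all genes with at least 2 kb of H3K4me3 cover in either list and some in the list described, it was 45.4% and 27.2%. Over the summed bases it was 82.5% and 44.4% for the members and 56.6% and 37.3% for all genes, so that in the mutant list the members lay below all genes by the median and above them by the sum.

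**Figure D5:**
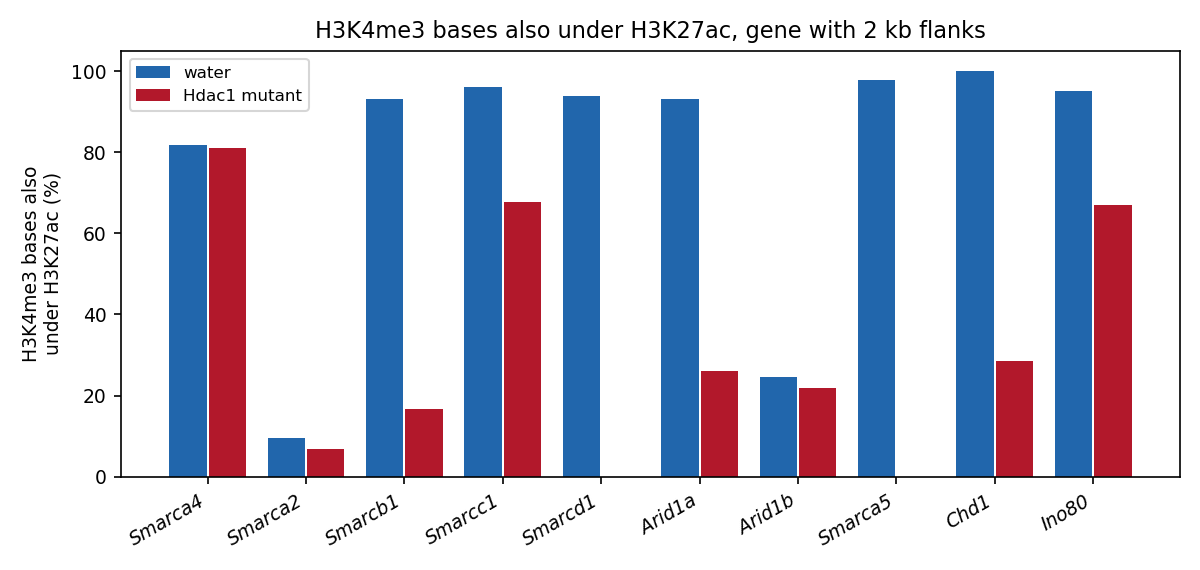
Percent of the H3K4me3 bases of each gene region that also lie under an H3K27ac peak, in the water list (blue bars) and the Hdac1 mutant list (red bars). The share is nearly equal at Smarca4 and 0 in the mutant list at Smarcd1 and Smarca5.

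With the 5′ and 3′ ends taken apart for the 9 members with a strand, H3K27ac was present at the 5′ end of 8 in water and 7 in the mutant list, against 45.6% and 44.9% of all genes. It was present in water and absent in the mutant list at 2 of 8, Smarcd1 and Smarca5, against 34.4% of all genes so marked in water, and the reverse held at Smarca2 alone, 1 of 1 (27.6%). H3K4me3 was present at the 5′ end of 9 and 8 members, against 71.1% and 67.8%. It was absent in the mutant list at 1 of 9, Smarcd1 (11.3%), and no member lacked it in water (16.1% of the genes lacking it gained a peak). Both marks together were present at the 5′ end of 8 of 9 members in water and 7 of 9 in the mutant list, against 42.3% and 38.8% of all genes.

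At the other end, H3K27ac was present within 2 kb of the 3′ end of 6 members in water and 4 in the mutant list, against 36.7% and 37.7% of all genes. It was absent in the mutant list at 4 of 6, Smarcb1, Arid1a, Smarca5 and Ino80 (38.9% of all genes so marked), and present only in the mutant list at 2 of 3, Smarcc1 and Arid1b (24.0%). At Smarcc1 and Arid1b these were 71 and 219 bases of the window. H3K4me3 was present at the 3′ end of 6 and 4 members, against 40.2% and 39.2%. It was absent in the mutant list at 3 of 6, Smarcc1, Smarcd1 and Ino80 (28.2%), and present there only in the mutant list at 1 of 3, Smarca5 (17.3%).

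A wider list of 55 other remodeller genes was described by the same measures. All were found in the table. Every one had H3K4me3 at a gene end in water and 54 in the mutant list, against 74.7% and 72.9% of all genes. H3K27ac was present at 48 and 47, against 54.8% and 58.0%. The 1 without H3K4me3 in the mutant list was Shprh, named after its values were seen. H3K27ac cover was 2-fold or more lower at 14 of the 54 with enough cover and higher at 3, against 24.0% and 24.6% of all genes, with a median ratio of 0.77. H3K4me3 cover was lower at 10 of 55 and higher at 3, against 10.8% and 14.5%, with a median ratio of 0.865. The share lower for H3K27ac is thus near that of all genes, and the families below are to be read against the same shares. Among 11 subunits of the INO80, SRCAP and TIP60 complexes, 5 were lower and 1 higher for H3K27ac, and among 21 other BAF, PBAF and non-canonical BAF subunits 5 were lower and 2 higher. Among 8 other CHD genes and 7 ISWI family genes with enough cover, 1 each was lower and 0 higher. Of 7 other SNF2-type remodellers 2 were lower and 0 higher. For H3K4me3 the BAF group had 5 of 21 lower and 0 higher, the INO80, SRCAP and TIP60 group 1 of 11 lower and 1 higher, the CHD genes 1 of 8 and 1, the ISWI genes 0 of 8 and 1, and the other SNF2-type remodellers 3 of 7 and 0. For H3K27ac the lowest were Actr8 and Ino80b, subunits of the INO80 complex, with 16842 and 3292 H3K27ac bases in water and 0 in the mutant list, and Ruvbl1, an AAA+ ATPase of the same complex, with 12901 and 852 bases. The highest were Actl6b, the neuronal actin-like BAF subunit, with 0 bases in water and 4719 in the mutant list, the PBAF subunit Arid2, with 8577 and 25475 bases, and Ino80d, with 22795 and 47091 bases.

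For H3K4me3 the lowest ratios among these other genes were at Actl6b (5557 bases in water and 1100 in the mutant list), at Pbrm1, the polybromo subunit of PBAF (31168 and 10207), and at Smarcc2, the paralogue of Smarcc1 (14215 and 4725). The highest were at the ISWI partner Baz1b (6722 and 19271 bases), at Chd6 (5471 and 13002) and at Ruvbl1 (5081 and 12057). Ruvbl1 and Actl6b thus went in opposite directions for the marks. Both marks were lower by 2-fold or more, as at Smarca5, at 4 of 54 genes of this list, against 3.42% of all genes. As at Arid1a, H3K27ac was lower by 2-fold or more with a higher H3K4me3 cover at 6 of 54, against 11.0% of all genes. At 25 of 51 of these genes the widest H3K27ac peak was 2-fold or more narrower in the mutant list, against 36.1% of all genes, and at 3 wider, against 17.2% (Bcl7b, Chd3 and Chd5, named after their values were seen). By the covered shares of the region in the 4 lists, the genes of this list nearest to Smarca5 were Smarcc2, Ino80e and Ss18l1, at distances of 21.0, 21.5 and 22.7 percentage points, the distance being the root of the summed squared differences over the 4 shares.

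Peaks at genes that mark the stage were checked as well. All 9 listed 2-cell genes had H3K27ac at a gene end in both lists, and 8 had H3K4me3 in each, several of them members of copy families whose reads cannot be placed with certainty. Of 7 cumulus and granulosa cell genes, whose cells can adhere to zygotes, 1 had H3K27ac in water and 4 in the mutant list, and 5 and 7 had H3K4me3. Among all protein-coding genes, 54.8% in water and 58.0% in the mutant list had H3K27ac at a gene end, and 74.7% and 72.9% had H3K4me3. The zona pellucida had been removed before lysis, per the labels' protocols. Foxl2, Fshr and Cyp19a1 had no H3K27ac at a gene end in either list, and Amh had it in both. Inha and the cumulus genes Has2 and Ptx3 had it in the mutant list only. A peak is not expression, and the part of such cells in the results was not tested. The water H3K27ac list held 77349 peaks and the mutant list 122487, with nearly equal covered length (251.6 and 245.9 Mb), and the H3K4me3 lists held 86798 and 85780 peaks (257.0 and 279.4 Mb).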

How the data were processed

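The marks H3K27ac and H3K4me3, were profiled by ULI-NChIP-seq in late 2-cell embryos injected with water or with Hdac1 mutant mRNA. The 16 libraries comprise 2 immunoprecipitation and 2 input libraries per mark and injection, grouped by their titles. The authors deposited 4 peak lists, 1 per immunoprecipitation group, with chromosome, start and end. The submitters' processing notes name CASAVA, Trimmomatic, Bowtie2, SAMtools, Picard, MACS2 and deepTools and the builds mm10 and GRCm38, without their roles, and thresholds and pooling are not given in the sources used here. How peaks were joined can change their number and width.

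Peaks on chromosomes 1 to 19, X and Y were read as BED intervals and set against the RefSeq gene table of GRCm38.p6 with Python 3.11.15, numpy 2.4.6 and pandas 2.3.3. Strand came from the RefSeq promoter table. The interval code was checked on simulated peaks. Covered bases were compared as the ratio of mutant to water over the gene with 2 kb flanks, where at least 2 kb was covered in either list, and called at 2-fold. No p-values were computed. The members and lists were chosen with earlier results of these data known. All 10 members are named. Of the other remodellers, named genes are the 3 lowest and 3 highest ratios per mark, and the 3 nearest to the member with the lowest H3K27ac ratio by covered shares. A further 4 (Shprh, Bcl7b, Chd3, Chd5) were named after their values were seen. Alternatives changed the window, the joining and width limits, the list length, the fold, the scaling and the region.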

Additional observations from a re-analysis of the deposited data

How the results depend on the processing

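No paired analysis was possible because the 2 libraries of a group share 1 deposited list, and for the same reason no library could be left out. Counts were taken as unchanged within 1.5 times, and ratios within the same factor. In this section lower, higher, narrower and wider mean by 2-fold or more, unless another fold is named. Of the recomputed values that answer a comparison, 119 were unchanged and 13 moved. Of those on single members, 186 were unchanged, 10 moved, and 1 that had passed 2-fold changed sign. Of all values on single members 16 changed sign, 8 of them with gene ends only. With gene ends only the log2 ratio turned from 0.04 to -3.66 for H3K27ac at Smarcb1, from -0.17 to 3.42 for H3K27ac at Arid1b, from -0.98 to 0.55 for H3K4me3 at Smarcb1 and from 0.71 to -0.31 for H3K4me3 at Chd1. The alternatives for peak widths were added after the data were seen. With gene ends only, H3K27ac cover was lower at 4 of the 9 members with enough cover and higher at 1, against 30.6% and 21.2% of all genes. The median log2 ratio was -0.87 against -0.27 as deposited, and -0.22 for all genes in that setting, and H3K4me3 cover was lower at 1 member (9.39% of all genes). In that setting the H3K4me3 log2 ratio of Smarca5 was 0.33, against -1.15, and no ratio could be given for H3K27ac at Smarca5 and H3K4me3 at Smarcd1, which had no mutant peak there, or for H3K27ac at Smarca2, which had too little cover. With windows of 5 kb, H3K4me3 cover was lower at 1 member (10.1% of all genes), Smarca5 no longer passing, and higher at 1 (14.6%). The widest H3K4me3 peak was narrower at 0 members there (10.1%), at 2 with windows of 1 kb (10.5%) and at 2 at 1.5-fold (18.9%). H3K4me3 cover was higher at 1 member in the wider 50% of each list (17.8% of all genes), at 1 over the gene body only (18.8%) and at 3 at 1.5-fold (26.8%). With peaks less than 1 kb apart merged, the widest H3K4me3 peak was wider at 1 member (22.7%). The count of members with a widest H3K27ac peak narrower by the fold limit was 6 as deposited (36.1% of all genes). It ranged from 5 with common limits on gap and width (32.3%) to 7 at 1.5-fold (48.5%). The median log2 ratio of all genes was -0.12 for H3K27ac and 0.11 for H3K4me3, and division by it left 2 members lower and 0 higher for H3K27ac (21.9% and 26.0% of all genes), and gave 3 lower and 0 higher for H3K4me3 (12.4% each). The depth of the libraries is unknown, so a missing peak does not show that a mark is absent.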
